A study of Sus scrofa with 15 samples.

Results

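LRRC8A and CLSTN3 are described here in backfat, the subcutaneous fat over the back, of 15 castrated male Iberian pigs. The members were all probe sets whose annotated gene symbol was exactly LRRC8A or CLSTN3, which gave 3 of the 3272 probe sets in the table. LRRC8A had 2 probe sets, called probe set 1 (Ssc.22015.1.A1_at) and probe set 2 (Ssc.22015.2.S1_at) in the order of their mean signal, and CLSTN3 had 1 (Ssc.18464.1.S1_at). Both genes were chosen by their log2 difference between the diets in these same arrays, so that difference is given as a description and carries no test.

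The study fed 8 animals a high-oleic diet, enriched in the monounsaturated fatty acid oleic acid, and 7 animals a standard (control) diet. Both diets ran from 28 kg live weight to slaughter, which was intended at about 110 kg. The less energy-dense control feed was given in larger amounts to equalise energy and protein. The labels place the sample in the inner layer of the fat and give no age and no other treatment. Each animal has its own Affymetrix porcine array and is 1 replicate. Fat cell size was not among the measurements used here.

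LRRC8A encodes the subunit that no volume-regulated anion channel can do without. These channels are built from LRRC8 family proteins and release chloride and small organic solutes when a cell swells. In mouse and human fat cells the protein, there also called SWELL1, responds to the swelling of enlarging cells and supports insulin signalling. CLSTN3 encodes calsyntenin 3, a membrane protein with cadherin repeats that binds neurexins at synapses. In mice the same locus also gives a shorter product, Clstn3b, made in fat cells, where it is known for lipid droplet form and sympathetic nerve supply. Whether the CLSTN3 probe set reads a product of that kind in the pig was not determined. LEP encodes leptin, the fat cell hormone whose expression is higher in larger fat cells, and it served as the measured companion of fat cell size.

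LRRC8A gave a higher mean signal in the high-oleic group by 0.86 and 0.88 log2 units on its probe sets, and CLSTN3 by 0.79. At fixed diet no slope of either gene on live weight or on LEP passed its test. The LRRC8A probe sets ordered the animals nearly alike, whereas LRRC8A and CLSTN3 were only loosely related once diet was held fixed.

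LRRC8A probe set 1 had a lowest, median and highest log2 signal of 4.88, 5.43 and 6.73 in high-oleic animals. In control animals these were 3.98, 4.82 and 5.13. All 8 high-oleic animals stood above the control mean and 6 of the 8 above the highest control animal, but the groups overlapped. The mean was 5.57 ± 0.62 in high-oleic animals (SD, n = 8) and 4.71 ± 0.39 in control animals (SD, n = 7). The gap of 0.86 (SE 0.28) was 1.81-fold.

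Probe set 2 of LRRC8A had 4.25, 4.63 and 5.82 as the lowest, median and highest log2 signal in high-oleic animals. Control animals had 3.53, 4.09 and 4.57. Here 4 of the 8 high-oleic animals stood above the highest control animal, and 5 of the 7 control animals stood below the lowest high-oleic animal. High-oleic animals averaged 4.97 ± 0.63 (SD, n = 8) and control animals 4.09 ± 0.39 (SD, n = 7). The gap of 0.88 (SE 0.28) was 1.84-fold. Both LRRC8A probe sets averaged below the array medians, which ran from 6.38 to 6.67, so these fold values rest on dim signal.

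CLSTN3 had a lowest, median and highest log2 signal of 8.43, 8.81 and 9.48 in high-oleic animals. In control animals these were 7.38, 8.05 and 8.79. Control animal 3, at 8.79, lay inside the high-oleic range, and control animal 2, at 8.49, did too. High-oleic animals averaged 8.85 ± 0.41 (SD, n = 8) and control animals 8.06 ± 0.50 (SD, n = 7), which put the gap at 0.79 (SE 0.26) or 1.73-fold. Between diets, limma called 0 of 3255 probe sets at an adjusted p under 0.05 (0%) and 128 at an unadjusted p under 0.05 (3.93%), and 66 of these had the higher mean in high-oleic animals (2.03%). Nothing is read from these shares about the members, which the same contrast chose. In bulk tissue, fewer cells of a type and less RNA per cell cannot be told apart.

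**Figure D1:**
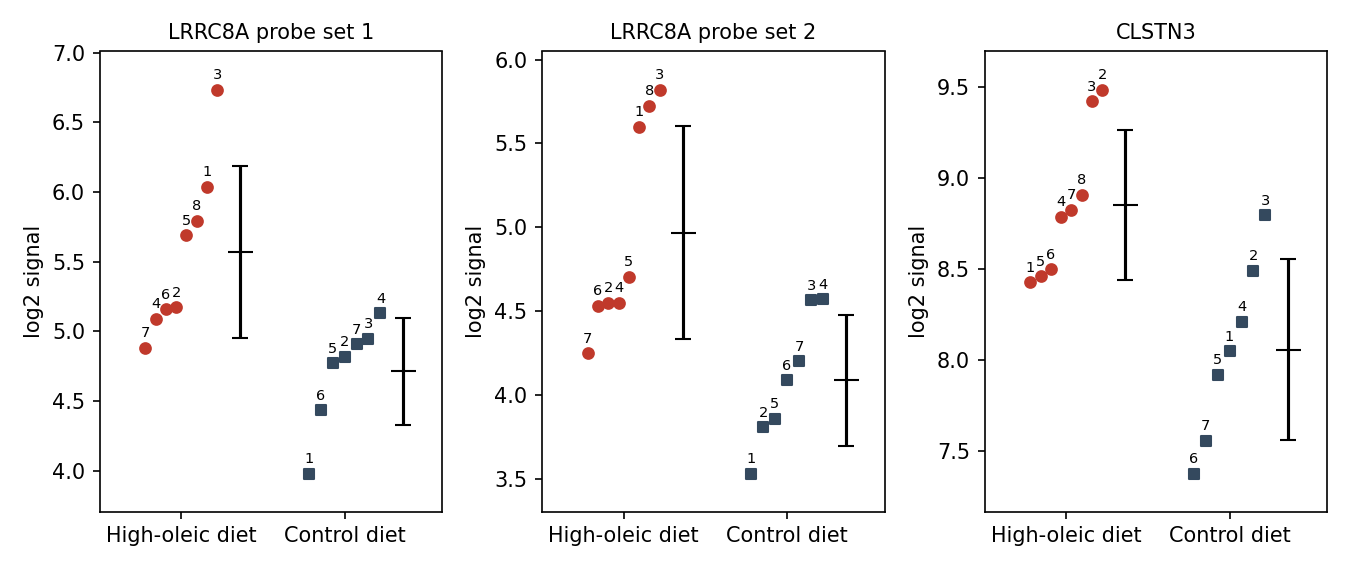
Log2 signal of the 3 member probe sets (vertical axis) in each animal, with the 8 high-oleic animals (circles) left of the 7 control animals (squares). Numbers are animal numbers, and the bars beside the points give mean ± SD. The groups overlap on every probe set, and high-oleic animals 3, 1 and 8 lead on both LRRC8A probe sets.

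The high values of LRRC8A on the high-oleic diet came from the same animals on both probe sets. Animals 3, 1 and 8 had 6.73, 6.04 and 5.80 on probe set 1. On probe set 2 they had 5.82, 5.60 and 5.73. Animal 7 was the lowest of the high-oleic group on both, at 4.88 and 4.25. Control animal 1 was the lowest of all 15 on both, at 3.98 and 3.53.

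Over the 15 animals the LRRC8A probe sets correlated with Pearson r = 0.925 and Spearman rho = 0.928. After each diet mean was subtracted r was 0.867, within the high-oleic animals it was 0.898 and within the control animals 0.774. These are descriptions, since both probe sets were read from the same arrays. Probe set 1 read higher than probe set 2 in 15 of 15 animals. The offset was 0.60 ± 0.28 in high-oleic animals (SD, n = 8) and 0.62 ± 0.26 in control animals (SD, n = 7). It was smallest in high-oleic animal 8, at 0.07.

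CLSTN3 was led only in part by the same animals. High-oleic animals 2 and 3 had the highest signals, 9.48 and 9.42. Control animals 6 and 7 had the lowest, 7.38 and 7.56. High-oleic animal 3 was high for both genes, while high-oleic animal 1, second for LRRC8A probe set 1 at 6.04, was the lowest of its group for CLSTN3 at 8.43. High-oleic animal 2, the highest for CLSTN3, had 5.17 on LRRC8A probe set 1, just above the highest control animal at 5.13.

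Across all 15 animals CLSTN3 and LRRC8A probe set 1 correlated with r = 0.583, given without a test because both genes were chosen for the same diet gap. With diet means subtracted r was 0.241 and rho was 0.164. Within the high-oleic animals r was 0.209 (exact permutation p = 0.626, adjusted p = 0.871 over 14 relations). There rho was 0.024 (exact permutation p = 0.977, adjusted p = 1), and r was -0.198 without the 2 animals farthest from the median of LRRC8A. Within the control animals r was 0.320 (exact permutation p = 0.488, adjusted p = 0.865) and rho 0.5 (exact permutation p = 0.267, adjusted p = 0.681), with r = 0.137 without the 2 farthest. High-oleic animal 3 alone decided the sign in its group, where r was -0.402 without it. In limma at fixed diet the slope of CLSTN3 on LRRC8A was 0.21 log2 units per log2 unit (95% interval -0.35 to 0.77, adjusted p = 0.994), and limma called 0 of 3253 probe sets in that fit (0% at an adjusted p under 0.05, 2.43% at an unadjusted p under 0.05).

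**Figure D2:**
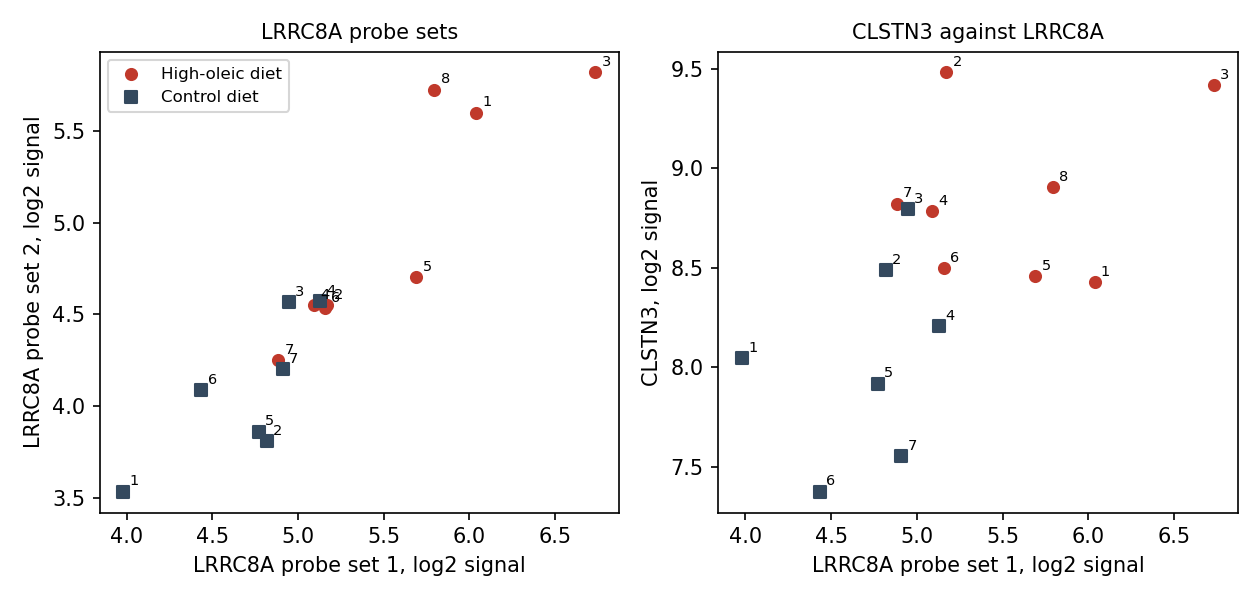
Left, log2 signal of LRRC8A probe set 2 (vertical) against probe set 1 (horizontal). Right, log2 signal of CLSTN3 (vertical) against LRRC8A probe set 1 (horizontal). Each point is 1 animal with its number, circles for the 8 high-oleic and squares for the 7 control animals. The LRRC8A probe sets fall along a line (r = 0.925), while CLSTN3 scatters within each diet (r = 0.209 among high-oleic and 0.320 among control animals).

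Live weight at slaughter differed between the diets, so the relation to weight had to be read at fixed diet. It ran from 104.5 to 116 kg in high-oleic animals and from 112 to 133 kg in control animals. The difference in means was -8.03 kg (two-sided exact permutation p = 0.00435 over 6435 splits), or -5.40 kg without control animal 5.

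Pooled correlations with live weight and LEP hold the diet gap by which both genes were chosen, so they are given as descriptions with no p. For LRRC8A probe set 1 and live weight the pooled r was -0.426 and rho -0.725, with r = -0.415 without the 2 farthest animals. With diet means subtracted r was -0.041 and rho -0.104. Within the high-oleic animals rho was -0.357 (exact permutation p = 0.389, adjusted p = 0.681). Within the control animals rho was 0 (exact permutation p = 1, adjusted p = 1). The corresponding r was -0.241 among high-oleic animals (exact permutation p = 0.556, adjusted p = 0.865) and 0.125 among control animals (exact permutation p = 0.779, adjusted p = 0.871). Without the 2 animals farthest from the median weight r was 0.551 among high-oleic and 0.307 among control animals.

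CLSTN3 and live weight gave a pooled r of -0.512 and rho of -0.561, and r = -0.644 without the 2 farthest animals. With diet means subtracted r was -0.165 and rho -0.221. Within the high-oleic animals r was 0.147 (exact permutation p = 0.734, adjusted p = 0.871) and rho 0.190 (exact permutation p = 0.665, adjusted p = 0.930). Within the control animals r was -0.318 (exact permutation p = 0.511, adjusted p = 0.865) and rho -0.607 (exact permutation p = 0.167, adjusted p = 0.583). Without the 2 farthest, r was -0.037 among high-oleic and -0.584 among control animals. The lightest high-oleic pig, animal 1 at 104.5 kg, had the lowest CLSTN3 of its group.

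In limma with diet in the fit, none of the 3 member probe sets passed the test for live weight. The slope per 10 kg was -0.04 for LRRC8A probe set 1 (95% interval -0.61 to 0.53, adjusted p = 0.982). It was -0.22 for LRRC8A probe set 2 (95% interval -0.79 to 0.35, adjusted p = 0.921). For CLSTN3 it was -0.13 (95% interval -0.66 to 0.39, adjusted p = 0.928). Across all 3255 probe sets limma called 0 (0%), and 124 at an unadjusted p under 0.05 (3.81%), where 0 of the 3 members stood. The intervals reach past a change of 0.5 log2 units per 10 kg in the negative direction for each member. Slopes of that size therefore lie within the error at this number of animals. The width of the intervals also hung on control animal 5, the heaviest at 133 kg. Without it the SE was 0.52, 0.52 and 0.48 for LRRC8A probe sets 1 and 2 and CLSTN3, against 0.27, 0.27 and 0.25 with it. With live weight added to the diet fit, the diet difference was 0.83 for LRRC8A probe set 1 (SE 0.36), 0.70 for probe set 2 (SE 0.36) and 0.69 for CLSTN3 (SE 0.33).

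Within the diets LEP gave no common direction with either gene. It was measured by 4 probe sets, 2 of them among the manufacturer's controls, that correlated with each other at r = 0.946 to 0.971 over the 15 animals, and the brightest served here. Its lowest, median and highest log2 signal were 11.04, 11.81 and 12.52 in high-oleic animals, against 10.29, 11.16 and 12.29 in control animals. Its mean was higher in high-oleic animals by 0.61 log2 units or 1.53-fold (limma adjusted p = 0.999). On the other LEP probe sets the gap was 0.64, 0.76 and 0.68. The groups overlapped, with 1 of the 8 high-oleic animals above the highest control animal. On the other LEP probe sets these were 3, 5 and 3 of the 8.

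At fixed diet the slope on LEP, in log2 units per log2 unit, was -0.11 for LRRC8A probe set 1 (95% interval -0.63 to 0.40, adjusted p = 0.913). It was -0.17 for LRRC8A probe set 2 (95% interval -0.69 to 0.34, adjusted p = 0.872). For CLSTN3 it was 0.0025 (95% interval -0.47 to 0.48, adjusted p = 0.999). Limma called 0 of the 3253 probe sets tested against LEP (0%), and 198 at an unadjusted p under 0.05 (6.09%), with 0 of the 3 members among them. For CLSTN3, 99.3% of the probe sets had a steeper slope on LEP in either direction.

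**Figure D3:**
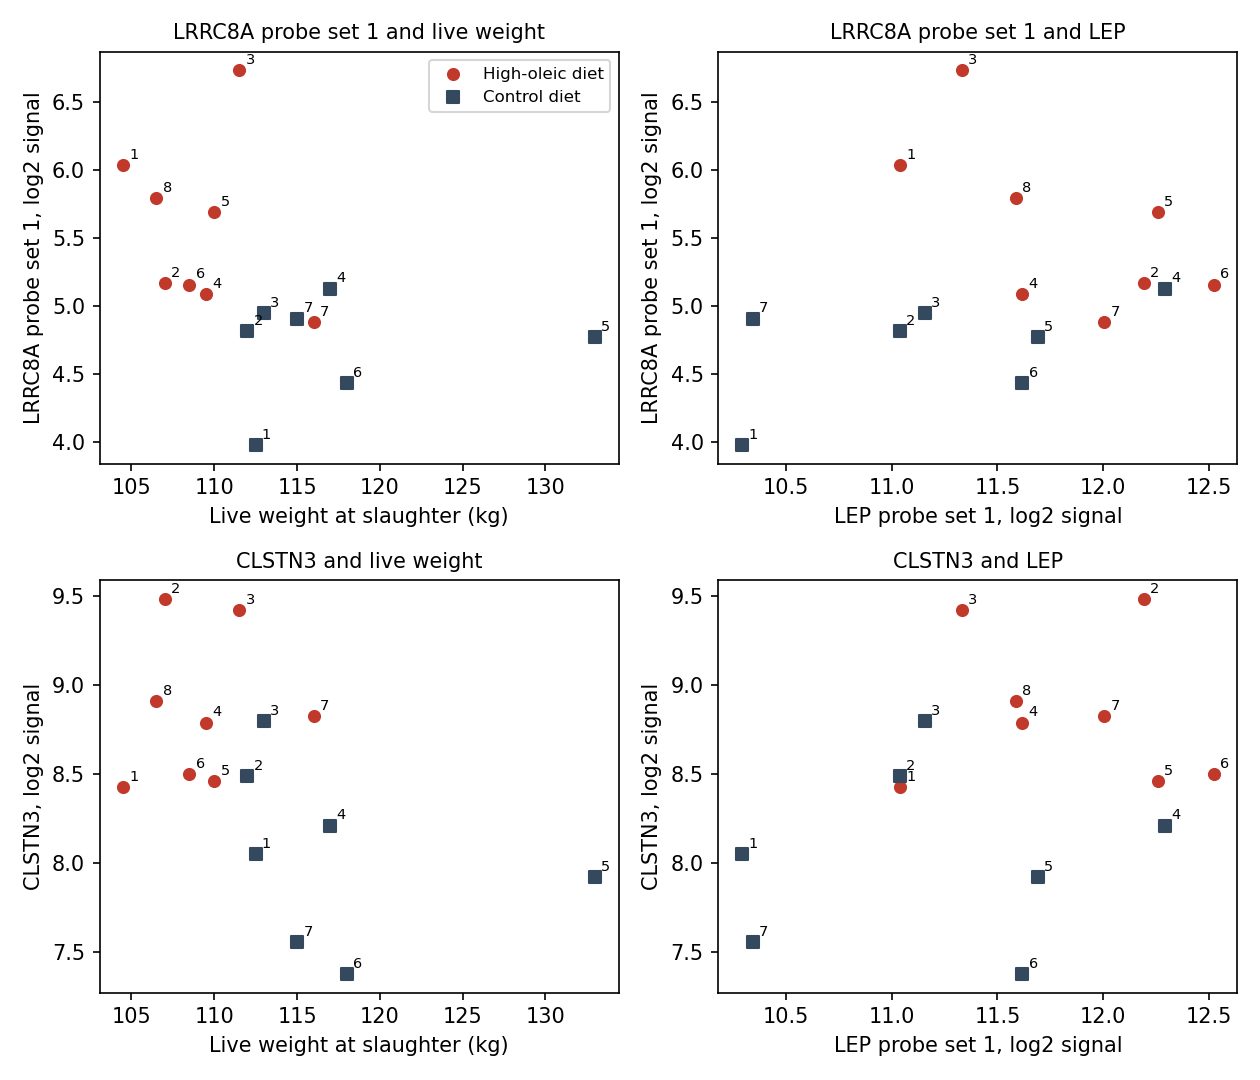
Log2 signal of LRRC8A probe set 1 (top) and CLSTN3 (bottom) on the vertical axes, against live weight in kg (left) and the log2 signal of LEP (right). Each point is 1 animal with its number, circles for the 8 high-oleic and squares for the 7 control animals. LRRC8A against LEP gives r = -0.638 among high-oleic animals and 0.496 among control animals, and neither relation passed its test.

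The correlation of LRRC8A with LEP had opposite signs within the diets. Among high-oleic animals r was -0.638 for LRRC8A probe set 1 (exact permutation p = 0.0902, adjusted p = 0.556) and rho -0.595 (exact permutation p = 0.132, adjusted p = 0.583), with r = -0.590 without the 2 farthest animals. Among control animals r was 0.496 (exact permutation p = 0.252, adjusted p = 0.705) and rho 0.429 (exact permutation p = 0.354, adjusted p = 0.681). The positive value among control animals rested on animal 1, the lowest for both genes at 3.98 for LRRC8A probe set 1 and 10.29 for LEP. Without that animal r was 0.075, and without animals 1 and 4, the 2 farthest from the median of LEP, it was -0.620. The pooled r was 0.221 and rho 0.243, with r = -0.174 without the 2 farthest, and r with diet means subtracted was -0.133.

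The difference in LEP slope itself, high-oleic minus control, was -1.04 for LRRC8A probe set 1 (SE 0.47, unadjusted p = 0.0390) and -1.21 for probe set 2 (SE 0.45, unadjusted p = 0.0142) in limma with an interaction term. Both had an adjusted p of 1.00, so neither passed the test. Without control animal 1 the value for probe set 1 was -0.80, and without high-oleic animal 3 it was -0.75 (unadjusted p = 0.125 each, limma). For probe set 2 these values were -1.06 and -1.07. At an unadjusted p under 0.05, 99 of 3253 probe sets were counted (3.04%) and 2 of the 3 member probe sets, both of LRRC8A, which are readings of 1 gene. Probe set 2 followed probe set 1 here, with r = -0.758 against LEP among high-oleic animals and 0.497 among control animals. For CLSTN3 the difference in slope was -0.12 (SE 0.49, adjusted p = 1.00). CLSTN3 against LEP gave r = -0.093 among high-oleic animals (exact permutation p = 0.816, adjusted p = 0.871) and 0.068 among control animals (exact permutation p = 0.871, adjusted p = 0.871), and rho of -0.048 (exact permutation p = 0.935, adjusted p = 1) and 0 (exact permutation p = 1, adjusted p = 1). Without the 2 farthest animals these r were -0.309 and -0.022. The pooled r was 0.323, rho 0.189 and r without the 2 farthest -0.015, and r with diet means subtracted was 0.0034. The slopes on live weight did not pass a test of a difference between diets either, at -0.49, -0.75 and 0.39 per 10 kg for LRRC8A probe sets 1 and 2 and CLSTN3 (adjusted p = 0.996 each, limma). Without control animal 5 these were -0.75, -1.56 and 1.59, and without high-oleic animal 1 the CLSTN3 value was 0.09. In that fit limma called 0 of 3255 probe sets (0%), and 162 at an unadjusted p under 0.05 (4.98%).

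**Figure D4:**
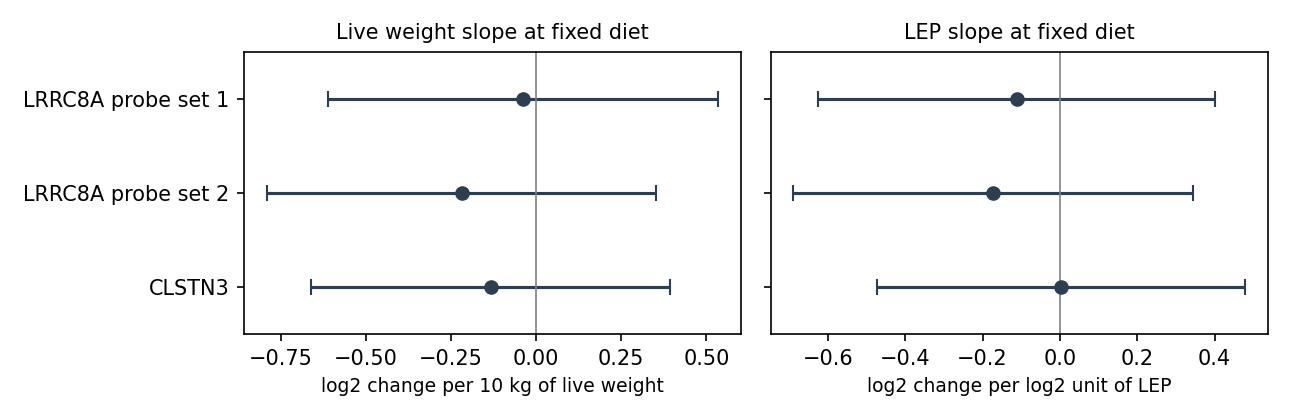
Slopes of the 3 member probe sets at fixed diet, on live weight (left, log2 change per 10 kg) and on LEP (right, log2 change per log2 unit of LEP). Points are limma estimates over 15 animals and bars are 95% intervals. Every interval includes 0.

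Few other genes of the same pathways were in the table, which held only probe sets that varied between arrays. Of the 5 LRRC8 subunits LRRC8A alone was measured, and of 7 calsyntenins and partners CLSTN3 alone. Of 20 genes of insulin signalling 0 were measured, so the pathway that LRRC8A supports in mouse fat cells was not analysed here. Of 26 genes of cell volume and osmotic response 2 were measured. AQP1, a water channel, had 10.26 ± 0.56 in high-oleic and 10.27 ± 0.56 in control animals (SD, n = 8 and n = 7). TTYH2, of a family also linked to swelling-activated anion currents, had 5.26 ± 0.70 in high-oleic and 4.98 ± 0.38 in control animals. Neither passed the diet test in limma (adjusted p = 0.999 each).

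Of 23 genes that accompany fat cell size or filling, 5 were measured, 0 passed the diet test, and 4 had a higher and 1 a lower mean in high-oleic animals. Their median difference was 0.30, against -0.03 over all tested probe sets, of which 1522 of 3255 had a higher and 1733 a lower mean. PNPLA2, the adipose triglyceride lipase, had 8.98 ± 0.38 in high-oleic and 8.47 ± 0.44 in control animals. PLIN2, which coats lipid droplets, had 9.15 ± 0.67 in high-oleic and 8.85 ± 0.49 in control animals. At fixed diet the r with LRRC8A probe set 1 was 0.069 for PNPLA2 and -0.123 for PLIN2, and with CLSTN3 it was 0.332 and -0.201. ACACA, the acetyl-CoA carboxylase of fatty acid synthesis, gave -0.338 with LRRC8A and -0.339 with CLSTN3.

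Of 15 innervation genes 2 were measured and 0 passed. UCHL1, a neuronal ubiquitin hydrolase, had 9.96 ± 0.996 in high-oleic and 8.75 ± 1.52 in control animals, and correlated with CLSTN3 at r = 0.104 at fixed diet. GAP43, a growth cone protein, had 1.73 ± 0.48 in high-oleic and 2.27 ± 0.94 in control animals, with r = -0.253 to CLSTN3. Its values lay near 1.49, the lowest log2 value of all probe sets, so little can be read from them.

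Markers of other cell types were set beside the members. Over all 3255 tested probe sets, 1733 had a lower and 1522 a higher mean in high-oleic animals. Of 10 smooth muscle markers 7 were measured and all 7 had lower means in high-oleic animals, with 0 past the test. Their score, the mean log2 deviation per animal, ran from -0.62 to 0.26 (median -0.34) in high-oleic and from -0.54 to 1.75 (median -0.16) in control animals. At fixed diet this score correlated with LRRC8A at -0.302 and with CLSTN3 at -0.283. All 10 measured of 13 skeletal muscle markers also had lower means in high-oleic animals, with 0 past the test. Their scores spanned -1.75 to 2.62 in high-oleic and -2.34 to 3.19 in control animals, with r of -0.189 to LRRC8A and 0.104 to CLSTN3. Both measured nerve markers of 9, UCHL1 and MBP, had higher means in high-oleic animals. Their score was -0.49 to 1.23 in high-oleic and -1.88 to 0.31 in control animals, with r of -0.055 to LRRC8A and -0.009 to CLSTN3. All 3 measured of 5 erythroid markers had higher means in high-oleic animals, with a median difference of 0.52 and 0 past the test. Their score was -0.94 to 1.20 in high-oleic and -1.05 to 0.33 in control animals, with r of 0.335 to LRRC8A and -0.0096 to CLSTN3. Of 10 interferon response genes 9 were measured, 6 with a higher and 3 with a lower mean in high-oleic animals and 0 past the test. Their score was -0.83 to 2.76 in high-oleic and -1.14 to 3.04 in control animals, with r of -0.335 to LRRC8A and 0.335 to CLSTN3. The endothelial, macrophage, lymphocyte and fibroblast lists had 3 measured genes each, 0 past the test, and r of -0.177 to 0.166 with LRRC8A and -0.075 to 0.375 with CLSTN3. All 3 macrophage markers had lower and all 3 fibroblast markers higher means in high-oleic animals. Of the endothelial markers 1 was higher and 2 lower, and of the lymphocyte markers 2 were higher and 1 lower. The part of these markers in the diet differences was not tested. Of 9 fat cell markers LEP and PNPLA2 were measured, so the tissue label was checked on these alone, and both gave signal in all 15 animals.

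High-oleic animal 8 stood apart on the first component of all probe sets, at 48.6 against a highest control value of 17.9. Without it the diet differences were 0.82 for LRRC8A probe set 1, 0.77 for probe set 2 and 0.79 for CLSTN3. Control animal 1, the lowest on both LRRC8A probe sets, stood at the other end of that component at -33.0, against a lowest high-oleic value of -15.9. Without control animal 1 the diet differences were 0.73 for LRRC8A probe set 1, 0.78 for probe set 2 and 0.79 for CLSTN3. The actin 3′ minus 5′ signal, a measure of RNA integrity, correlated with LRRC8A probe set 1 at -0.633 among high-oleic and 0.280 among control animals, and with CLSTN3 at -0.385 and 0.097. For LRRC8A probe set 2 these were -0.537 and 0.517. With the first component r was -0.026 and 0.611 for LRRC8A probe set 1, 0.234 and 0.411 for probe set 2, and -0.216 and -0.297 for CLSTN3. With the signal of spiked transcripts r was -0.198 and 0.561, -0.035 and 0.442, and -0.221 and -0.565 in the same order. CLSTN3 correlated negatively with the median signal of the array, with r = -0.746 at fixed diet, a value that 0.952% of all probe sets undercut. For the LRRC8A probe sets this r was -0.451 and -0.423. Array medians lay within 6.39 to 6.65 in high-oleic and 6.38 to 6.67 in control animals, and after median centring the CLSTN3 diet difference was 0.80, against 0.79 as deposited. The part of these array measures in the results was not tested.

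The genes most like LRRC8A were ranked by r over the 15 animals after diet means were subtracted, among probe sets with 1 gene symbol. Over all probe sets, unnamed ones included, the highest r was 0.733 with LRRC8A and 0.761 with CLSTN3. The closest named genes were PLPPR5, a phospholipid phosphatase related protein, at 0.719, JCHAIN, the joining chain of secreted antibodies, at 0.670 and C2CD2 at 0.647. ENPP2, which encodes the fat-secreted enzyme autotaxin, followed at 0.566 and LOC100621559 at 0.548. Against probe set 2 of LRRC8A, which the ranking did not use, these were 0.544, 0.466, 0.657, 0.589 and 0.727 in the same order. C2CD2 and LOC100621559 each had another probe set, at 0.566 and 0.410 with LRRC8A probe set 1. Most opposed were ZMAT3, an RNA-binding target of p53, at -0.756, C2H19orf66 at -0.731 and PRPF4B, a kinase of the splicing machinery, at -0.678. PLPPR5 followed LRRC8A among the high-oleic animals (0.835) but hardly among the control animals (0.138), while JCHAIN did so in both (0.693 and 0.640).

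The genes most like CLSTN3 formed a different set. Among named genes they were CH25H, the cholesterol 25-hydroxylase, at 0.700 on one probe set and 0.372 on its other, the actin-binding LIMA1 at 0.689 and the protein kinase C gene PRKCB at 0.687. SCG5, a neuroendocrine chaperone, followed at 0.676 and PIGM, which adds a mannose to membrane anchors, at 0.670. SCG5 had 6.20 ± 0.94 in high-oleic and 4.92 ± 0.81 in control animals (SD, n = 8 and n = 7). The most opposed were the RNA helicases DHX9 at -0.814 and DDX46 at -0.764 and the scaffold protein MPDZ at -0.777. All 8 also correlated with the array median at fixed diet, with r of -0.748 to -0.636 for the 5 alike and 0.741 to 0.848 for the 3 opposed. After median centring the r with CLSTN3 were 0.745 to 0.780 for the 5 alike and -0.792 to -0.740 for the 3 opposed. Since CLSTN3 and the 5 alike all fell as the array median rose, centring could not turn their r negative and is no check on them. As a background, 10.4% of the other probe sets had an r beyond 0.5 in either direction with CLSTN3, against 3.50% with LRRC8A. All these values share the same 15 arrays and are descriptions of likeness.

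**Figure D5:**
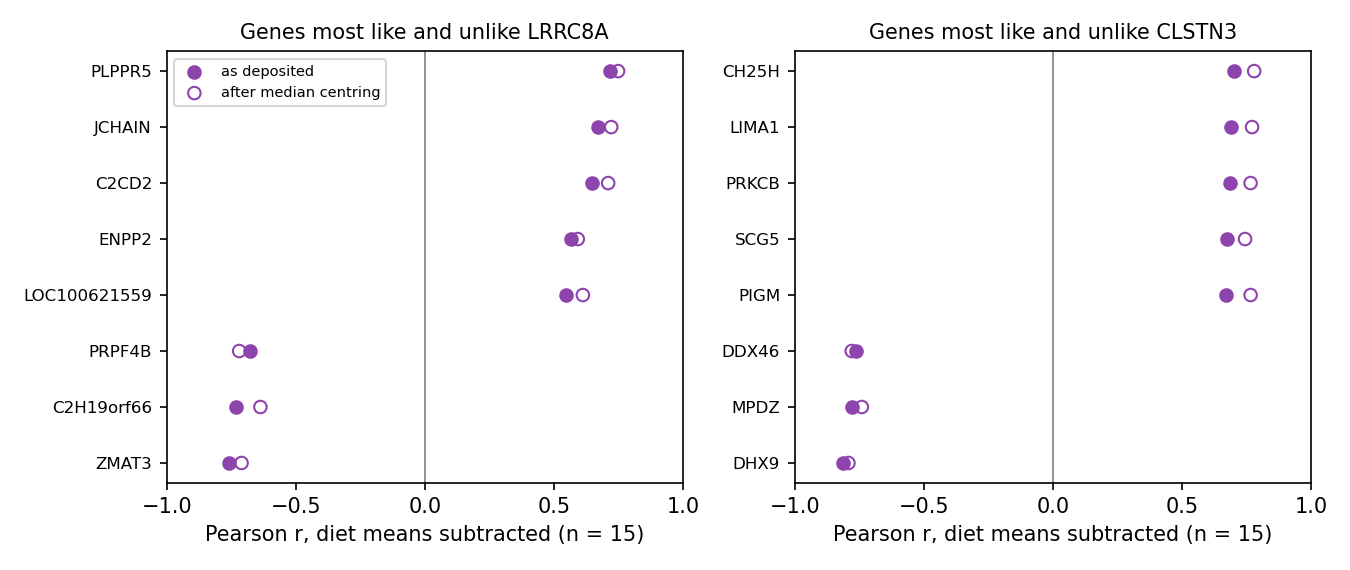
Pearson r at fixed diet (horizontal axis, 15 animals) of the 5 genes most like and the 3 most unlike LRRC8A probe set 1 (left) and CLSTN3 (right). Filled points use the values as deposited and open points the values after median centring. No gene changes side after centring. For the 5 genes most like CLSTN3 a change was not possible, since they and CLSTN3 all fell as the array median rose.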

How the data were processed

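The authors deposited 1 table of log2 signals per probe set for 15 arrays, 1 per animal. The tools GCOS and GCRMA are named in the submitters' processing notes without role, version or setting. The log2 scale was read from the values, which ran from 1.49 to 14.36. In each probe set at least 3 arrays lay 1.5-fold or more from the median, so genes that varied less are not analysed here.

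Diet groups, animal numbers and live weights came from the labels. Symbols came from GEO's platform annotation, and 1455 of 3255 tested probe sets had 1 symbol, 27 several and 1773 none. The 17 manufacturer controls were left out of the tests. Linear models were fitted over all tested probe sets in R 4.3.3 by limma 3.58.1, moderated with eBayes, and p-values were adjusted by Benjamini-Hochberg (threshold 0.05). They modelled diet, diet plus live weight, diet plus LEP, diet plus LRRC8A probe set 1, and the interactions with diet. Intervals are limma's 95% intervals. Correlations used probe set 1 of each gene, with all 5040 or 40320 orders within diets, two-sided. The adjustment over 14 relations included 4 planned pooled tests over 15 animals with 100000 permutations. Their p-values are not given, because the pooled values hold the diet gap that chose the genes. The model and the permutation test were tested on simulated data.

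The members and the gene lists were chosen with earlier results of these data known. Named were the members, LEP, the 5 most and 3 least like genes per member, and up to 4 measured genes per list. The alternatives were median centring, quantile normalization, leaving out animals, a window of live weight, array weights, a filter on dim probe sets, control probe sets kept, covariates and the animal number as a block. The labels number the animals separately, and precision is limited by how many arrays there are.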

Additional observations from a re-analysis of the deposited data

Results flagged for a closer look

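Dixon's test for a distant animal, run 10 times over the 3 member probe sets, LEP and live weight within each diet, found 1 such value, where chance gives about 1 in 20 groups. It was the live weight of control animal 5, 133 kg against a median of 114 kg in the other control animals. In that animal LRRC8A probe set 1 was 4.77, probe set 2 was 3.86 and CLSTN3 7.92, all within the range of the other control animals. Without it the live weight slopes per 10 kg were -0.22 for LRRC8A probe set 1 (SE 0.52), -0.40 for probe set 2 (SE 0.52) and -0.25 for CLSTN3 (SE 0.48).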

How the results depend on the processing

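The diet differences of the 3 member probe sets stayed positive under all 21 alternatives each, at 0.69 to 0.95 for LRRC8A probe set 1, 0.70 to 0.98 for probe set 2 and 0.68 to 0.92 for CLSTN3. These alternatives refit the arrays whose diet gap chose the genes, so the constant sign is a description and no support. No live weight or LEP slope of a member passed the test under any alternative, with adjusted p-values of 0.781 to 1.00 for live weight and 0.446 to 1.00 for LEP. Their signs changed as follows, and the cause was not tested. In animals of 109.5 to 118 kg the live weight slope of LRRC8A probe set 2 was 0.083, and the LEP slopes were 0.077, 0.11 and -0.062 for LRRC8A probe sets 1 and 2 and CLSTN3. With LEP in the fit the live weight slope of LRRC8A probe set 1 was 0.015, and with array weights the LEP slope of CLSTN3 was -0.19. With the animal number as a block, in which high-oleic animal 8 has no partner and drops out, the live weight slope of CLSTN3 was 0.20, the LEP slope of LRRC8A probe set 2 was 0.035, the slope of CLSTN3 on LRRC8A was -0.25 and the difference in LEP slope of CLSTN3 was 0.30. Deviations of same-numbered animals of the 2 diets correlated at over 0.1 in 4 of 7 pairs (range -0.161 to 0.296), which does not decide between the fits. The fit without the block remained the main one. With the block the SE of the CLSTN3 diet difference was 0.18, against 0.26 without it. For LRRC8A probe sets 1 and 2 it was 0.28 and 0.26 with the block, against 0.28 each without it. The block left the diet count at 0. The signal of spiked transcripts was lowest in animal 1 of each diet (5.25 and 5.19) and highest in high-oleic animal 8 (7.29) and control animal 7 (6.12). Whether the numbers mark a shared processing step was not tested. The slope of CLSTN3 on LRRC8A was 0.37 after median centring and 0.32 after quantile normalization, against 0.21 as deposited. Neither passed the test in limma (adjusted p = 0.999 and 0.998). Leaving out 1 animal at a time gave live weight slopes of -0.22 to 0.11 for LRRC8A probe set 1 and LEP slopes of -0.33 to 0.019 for that probe set and -0.12 to 0.071 for CLSTN3. It gave slopes of CLSTN3 on LRRC8A of -0.0074 to 0.30, differences in live weight slope of -0.90 to 0.43 for LRRC8A probe set 1, -1.56 to -0.38 for probe set 2 and 0.09 to 1.59 for CLSTN3, and differences in LEP slope of -0.51 to 0.076 for CLSTN3. For LRRC8A probe sets 1 and 2 the differences in LEP slope were -1.22 to -0.75 and -1.37 to -1.06. The count of probe sets called for live weight was 0 to 5, where leaving out control animal 2 gave 5 and leaving out high-oleic animal 7 gave 2, and for a difference in live weight slope 5 without high-oleic animal 1. None of these calls was a member. The ranges of r were -0.709 to 0.196 (high-oleic) and -0.215 to 0.207 (control) for LRRC8A with live weight, -0.100 to 0.397 for CLSTN3 with live weight (high-oleic) and -0.037 to 0.360 for LRRC8A with LEP (all animals). They were -0.492 to 0.161 (high-oleic) and -0.212 to 0.283 (control) for CLSTN3 with LEP, and -0.402 to 0.490 for CLSTN3 with LRRC8A (high-oleic). Probe set 2 of LRRC8A had a mean under 5 and was not in the fits with the filter on dim probe sets.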
